A study of Mus musculus with 18 samples.

Results

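Basal cells of the mouse mammary gland sorted at mid pregnancy were compared with basal cells sorted at puberty. The comparison covers 18467 genes, those with a value of 10 or more in at least 2 of the 4 libraries compared, out of 46257 genes in the whole table. Gene expression was measured by RNA sequencing of cells isolated by fluorescence-activated sorting from 3 populations (basal, ER- luminal and ER+ luminal) at 3 stages (puberty, adulthood and mid pregnancy), with 2 libraries in each of 9 groups. All animals, those of puberty and of pregnancy alike, carried the alleles ERrtTA, TetOCre and rosaYFP, which make up a tetracycline-controlled Cre recombinase with a yellow fluorescent reporter. Neither doxycycline treatment nor sorting gates, strain, age in weeks or day of pregnancy is stated in the labels. The groups were taken from the titles, because the cell type tag says BC luminal cells for the 4 samples compared and basal cells for the adult ones. Whether replicates came from separate animals is not in the labels. The p-values therefore reflect only how far these samples spread, and that spread may be technical.

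Basal cells form the outer layer of mammary ducts and alveoli, on the basement membrane. Most are myoepithelial cells, smooth-muscle-like epithelial cells that contract in response to oxytocin and expel milk. At puberty ducts grow into the fat pad of the gland, and in pregnancy alveoli form in which luminal cells come to make milk.

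Values are read counts scaled to a common total of 20000000 per library, and library 1 is named before library 2 throughout. Log2 fold changes are pregnancy minus puberty on log2(value + 1), with their standard error after ±. Each adjusted p comes from limma, after Benjamini-Hochberg correction across the 22315 genes tested. A gene was called higher or lower at an adjusted p under 0.05. The puberty libraries held 9790396 and 9507925 reads in genes and the pregnancy libraries 6033670 and 5999322. Across genes, Spearman correlations were 0.971 between the puberty libraries, 0.977 between the pregnancy libraries and 0.948 to 0.952 between the stages. Genes are not independent replicates.

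The label basal was checked against its markers. The basal keratin gene Krt14 was at 22914 and 26552 at puberty and 20793 and 17060 in pregnancy. ER- luminal libraries held 447 and 157 of it at puberty and 2712 and 2719 in pregnancy. Smooth muscle actin, Acta2, was at 69716 and 62418 at puberty and 93797 and 89496 in pregnancy, and the oxytocin receptor gene Oxtr at 49019 and 34268 at puberty and 18837 and 20239 in pregnancy. All 4 libraries were thus high in the defining genes of myoepithelial cells. Genes of other cells were also read. The 12 pan-luminal markers summed to 23600 and 54330 at puberty and 31677 and 41093 in pregnancy, and none was at 0. The 14 markers of ER+ luminal cells summed to 10277 and 37961 at puberty and 5528 and 6861 in pregnancy. The second puberty library thus stood above the first in luminal markers, and likewise in immune markers, with sums over 18 genes of 1298 and 6369. The first puberty library stood above the second in Schwann cell markers. In bulk samples fewer cells of a type and less RNA per cell cannot be told apart.

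Pregnancy basal libraries had more transcripts of milk proteins and of the alveolar regulators Elf5 and Ehf, and fewer of fat cell genes, nerve sheath genes, interferon response genes and a set of growth factor and hormone receptors. The contractile genes and most basal keratin genes had no call. Of the 18467 genes, 458 were called (2.48%, against 2.07% of all 22315 tested), 148 higher in pregnancy (0.801%, against 0.668%) and 310 lower (1.68%, against 1.4%). The median log2 fold change was -0.02, and 89 of the higher and 143 of the lower genes differed by 4-fold or more. Among the called genes, 144 of the higher and 293 of the lower are annotated as protein coding. The adult basal mean lay above the puberty mean for 136 of the 148 higher genes, and above the pregnancy mean for 52. It lay below the puberty mean for 269 of the 310 lower genes, and below the pregnancy mean for 36. Through the pregnancy libraries alone 422 genes reached the value of 10, of which 22 were called, and through the puberty libraries alone 308, of which 45 were called. These had to differ and support nothing. The second highest value was exactly 10 in 518 genes, just inside the limit, and 9 in 419 genes, just outside. Calls were sensitive to single libraries: the count was 158 and 240 without puberty library 1 or 2, and 99 and 75 without pregnancy library 1 or 2. In every one of these 4 fits 47 of the called genes, 12 higher and 35 lower, were called again in the same direction. Of these, 3 of the higher and 5 of the lower are genes that reached 10 through 1 stage only. The 4 libraries fitted alone gave 1509 called genes, and the fit without the 6 adult libraries 904. At an unadjusted p under 0.05, 2789 of the 18467 genes passed. The plot of change against level shows the called genes over the whole range of levels.

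**Figure D1:**
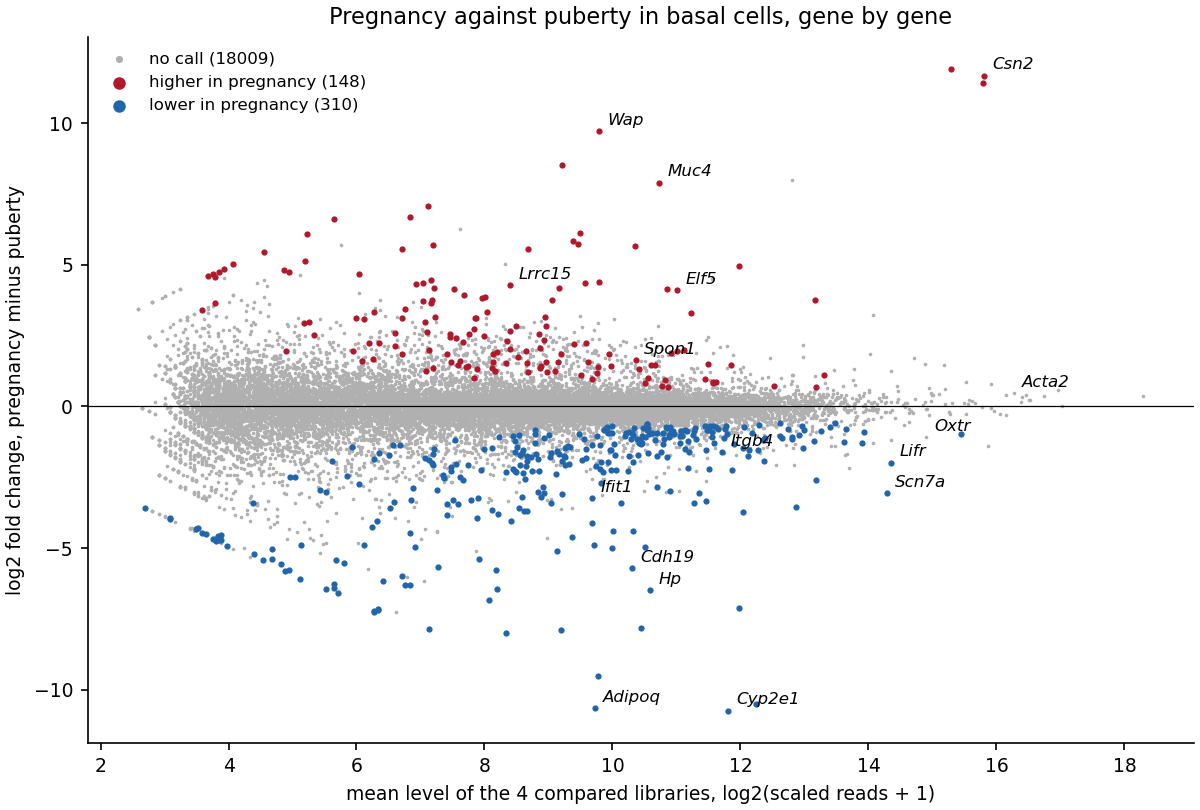
Log2 fold change of each of the 18467 genes (vertical axis) against its mean level in the 4 compared libraries (horizontal axis, log2 of scaled reads + 1), with 148 genes called higher in red and 310 called lower in blue. Milk genes (Csn2, Wap) lie at the top and the fat cell genes Adipoq and Cyp2e1 at the bottom, while Acta2 and Oxtr, at high levels, have no call.

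The caseins and Wap, the main proteins of mouse milk, showed some of the largest rises. Beta-casein, Csn2 (chromosome 5, 87692624 to 87699630, minus strand), was at 21 and 53 at puberty and 97320 and 132154 in pregnancy, a log2 fold change of 11.68 ± 1.83 (adjusted p = 0.0137). The alpha-casein gene Csn1s1 was at 29 and 53 at puberty and 91367 and 135578 in pregnancy (11.43 ± 1.85, adjusted p = 0.0157). A related casein gene, Csn1s2a, was at 9 and 40 at puberty and 64627 and 96089 in pregnancy (11.93 ± 2.19, adjusted p = 0.0265). Both pregnancy libraries lay far above both puberty libraries for these genes. Whey acidic protein, Wap (chromosome 11, 6635482 to 6638637, minus strand), was at 0 and 3 at puberty and 2289 and 1242 in pregnancy (9.72 ± 1.06, adjusted p = 0.000425). Its puberty values stood at or near 0, and the groups did not overlap. Adult basal libraries held 77881 and 6854 of Csn2 and 134 and 5 of Wap, and thus differed widely from each other.

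Of 19 milk protein genes on the list, 11 were called higher and none lower (57.9%, against 2.48% of all genes). The median log2 fold change was 3.93 against -0.02 over all genes. Wap, Lao1, Olah and Csn1s2b reached the value of 10 through the pregnancy libraries alone and thus had to differ. Of the other 15, 7 were called higher, with a median of 3.22. Beyond the caseins and Wap above, the 11 called genes included Lao1, an L-amino acid oxidase of milk (0 and 9, then 975 and 1395, 8.53 ± 1.25). They also included Olah, which ends medium-chain fatty acid synthesis (5.70 ± 1.11), and Btn1a1, butyrophilin of the milk fat globule (4.14 ± 0.69). The rest of the 11 were the milk lipase gene Cel (3.93 ± 0.82), Csn1s2b (3.41 ± 0.84), the transferrin gene Trf (2.56 ± 0.47) and the mucin gene Muc1 (1.85 ± 0.34). Csn1s2b stood near the floor, at 3 and 0 at puberty and 17 and 24 in pregnancy (adjusted p = 0.0497). In the pregnancy libraries 1 read stands for 3.29 and 3.31. The 8 without a call included Csn3, kappa-casein, at 2853 and 3748 at puberty and 24610 and 37629 in pregnancy (3.22 ± 0.75, adjusted p = 0.0647). They also included Lalba, the lactose synthase regulator, at 37 and 195 at puberty and 191 and 259 in pregnancy (adjusted p = 0.497), and Glycam1, at 495 and 5 at puberty and 12751 and 15500 in pregnancy (adjusted p = 0.326). The puberty libraries differed from each other for Glycam1. Lactoferrin, Ltf, went the other way in value, at 1855 and 4070 at puberty and 771 and 914 in pregnancy (adjusted p = 0.106).

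The rise of Wap was called in each fit that left out 1 of the 4 libraries, with adjusted p up to 0.00895, but Wap is one of the genes that had to differ. The calls of Csn2, Csn1s1, Csn1s2a, Olah, Cel, Csn1s2b and Trf were lost without any 1 of the 4, at adjusted p up to 0.112, 0.128, 0.17, 0.175, 0.239, 0.372 and 0.134. That of Btn1a1 was lost without puberty library 1 or either pregnancy library (up to 0.13), that of Muc1 without puberty library 1 or pregnancy library 2 (up to 0.153) and that of Lao1 without pregnancy library 2 (0.0541). Over these fits 1 to 4 of the 19 milk genes were called.

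Promoters of 2 casein genes are shown, since these genes rose together and STAT5, which carries the prolactin signal, binds a palindrome in milk gene promoters. The motif searched was TTCNNNGAA, which reads the same on both strands. Sequences are the RefSeq promoters of GRCm38.p6, from 250 bases before to 50 after the start of the gene, printed 5′ to 3′ along the gene, with the motif in capitals. They were chosen after the values were seen.
Csn2, chr5:87699376-87699675, minus strand: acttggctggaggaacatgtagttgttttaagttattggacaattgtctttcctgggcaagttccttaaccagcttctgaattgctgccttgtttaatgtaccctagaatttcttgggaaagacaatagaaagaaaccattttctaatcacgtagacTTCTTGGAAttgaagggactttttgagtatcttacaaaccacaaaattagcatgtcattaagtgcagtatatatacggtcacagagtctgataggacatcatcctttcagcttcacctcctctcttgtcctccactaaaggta
Csn1s1, chr5:87665958-87666257, plus strand: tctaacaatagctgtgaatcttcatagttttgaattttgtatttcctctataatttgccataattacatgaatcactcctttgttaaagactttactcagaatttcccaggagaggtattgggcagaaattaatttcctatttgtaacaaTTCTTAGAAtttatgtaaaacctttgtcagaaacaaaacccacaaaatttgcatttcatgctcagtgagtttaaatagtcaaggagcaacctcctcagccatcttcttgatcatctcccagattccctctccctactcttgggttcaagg
Each holds the motif at 1 place, starting 93 bases before the start of Csn2 and 100 before that of Csn1s1. Of the 11 called milk genes, 8 have a promoter in the RefSeq table, and 3 of these (Csn1s1, Csn1s2a and Csn2) hold the motif. It occurs in 8.3% of all 32851 promoters in that table and in 9.55% of its 27025 genes. A match is a description of the letters and not a binding site or a cause.

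Regulators of the alveolar lineage rose as well. Elf5, a transcription factor required for alveolar cells, was at 142 and 343 at puberty and 3070 and 4702 in pregnancy (4.10 ± 0.68, adjusted p = 0.0146). The related factor Ehf was at 278 and 640 at puberty and 3307 and 5348 in pregnancy (3.31 ± 0.59, adjusted p = 0.0188). Puberty and pregnancy did not overlap for either gene. Adult basal libraries held 4507 and 1121 of Elf5 and 4939 and 1336 of Ehf, already above the puberty values. Of 12 markers of ER- luminal and alveolar cells, 4 were called higher and none lower (33.3%, against 2.48% of all genes), with a median of 1.56. The other 2 called were Rspo1, an enhancer of WNT signalling (5.72 ± 1.18), and the phosphate transporter gene Slc34a2 (3.15 ± 0.72). With the 6 basal libraries fitted alone, the calls of Elf5, Ehf, Rspo1 and Slc34a2 were lost. The progenitor receptor gene Kit, at 558 and 1277 at puberty and 2549 and 4179 in pregnancy, missed the threshold (adjusted p = 0.0818). Calls of Elf5, Ehf and Slc34a2 were lost without puberty library 1 or either pregnancy library (adjusted p up to 0.13, 0.16 and 0.298), and that of Rspo1 without any 1 of the 4 (up to 0.235).

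Luminal transcripts were present in all basal libraries, and their levels stand beside the milk results. In pregnancy, the basal level of the 19 milk genes was 32.6% of the ER- luminal level (median, range 19.2% to 143%), that of the 12 ER- luminal and alveolar markers 31.3% (22% to 143%) and that of the 12 pan-luminal markers 36% (24.7% to 73.8%). At puberty these medians were 11.6%, 5.69% and 23.9%. The ER- luminal libraries of pregnancy differed widely in Csn2, at 253329 and 21279, so that the basal mean was 45.3% of the first and 539% of the second. For Wap the basal mean was 24.3% and 49.6% of these libraries, and for Elf5 30.5% and 34.5%. The median over the milk genes was 35.8% of the first and 29.3% of the second. The pan-luminal markers themselves had no call in either direction, with a median of -0.04 in basal against -0.86 in luminal libraries. The luminal keratin genes Krt8, at 6678 and 12512 at puberty and 8513 and 10590 in pregnancy, and Krt18, at 3707 and 10753 at puberty and 4397 and 6560 in pregnancy, lay between the puberty values, and their direction turned when 1 of the libraries was left out. The claudin gene Cldn7, at 149 and 485 at puberty and 751 and 908 in pregnancy, was the nearest to a call among them (adjusted p = 0.0723). The part of luminal cells in these values was not tested.

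**Figure D2:**
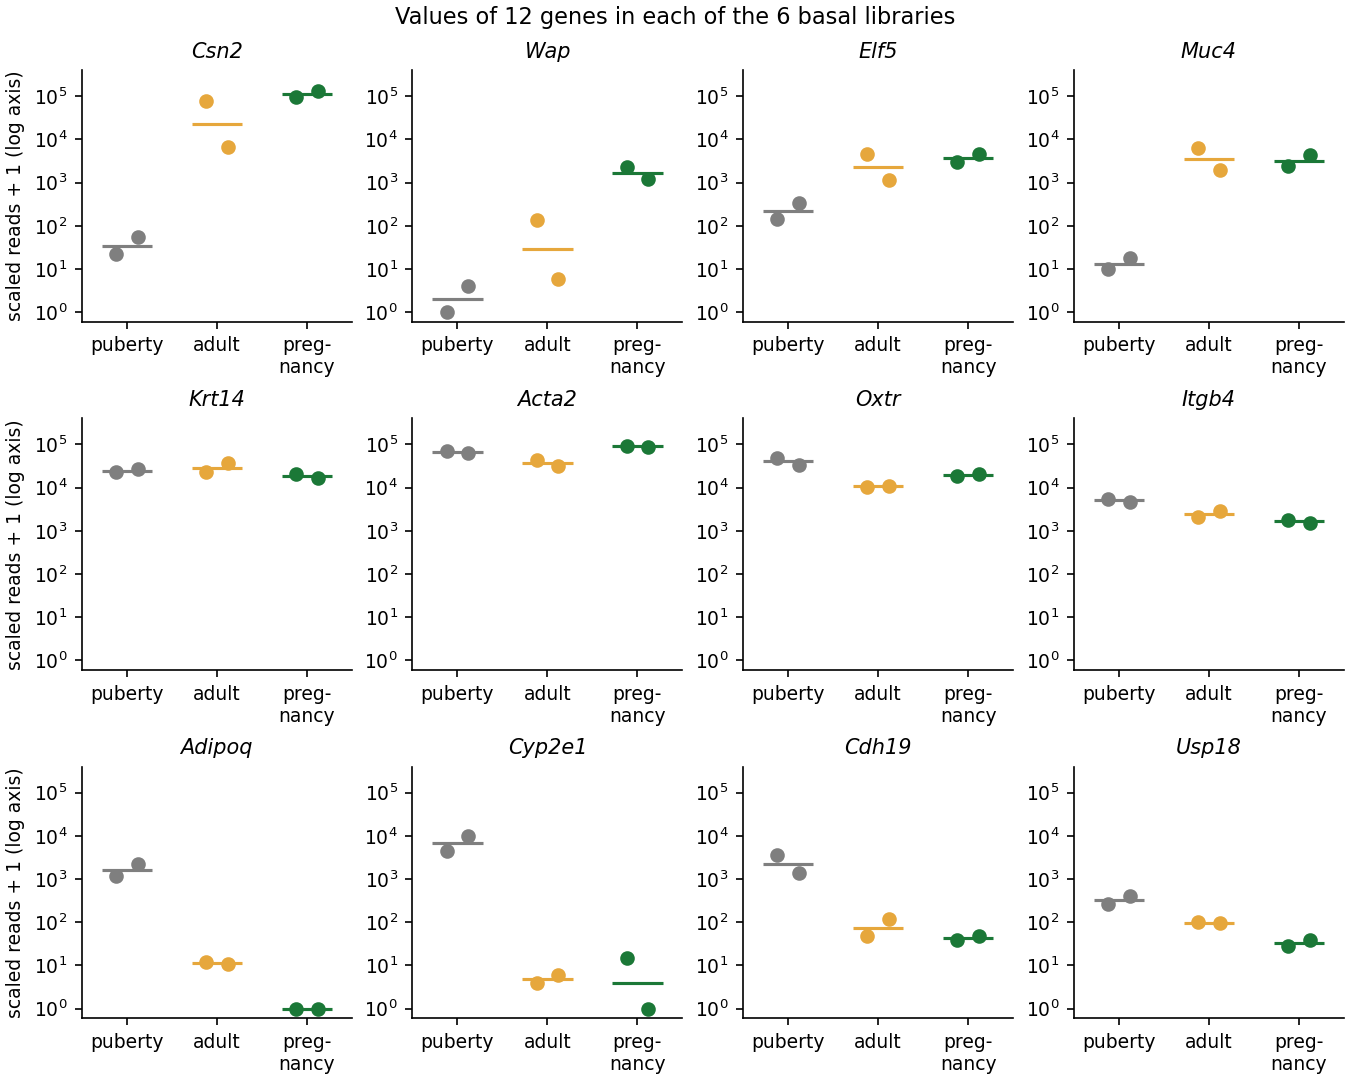
Values of 12 genes in each of the 6 basal libraries (points, scaled reads + 1 on a log axis, by stage on the horizontal axis) with the geometric mean per stage (lines). Csn2, Wap, Elf5 and Muc4 are higher and Adipoq, Cyp2e1, Cdh19, Usp18 and Itgb4 lower in pregnancy than at puberty, while Krt14, Acta2 and Oxtr have no call.

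Genes outside the milk list were called higher too. The membrane mucin gene Muc4 was at 9 and 17 at puberty and 2375 and 4365 in pregnancy (7.91 ± 0.61, adjusted p = 0.000238). The orphan nuclear receptor gene Esrrb was at 0 in both puberty libraries and at 83 and 113 in pregnancy, at least 31.5-fold higher (the bound stands for 3 reads over the group, and covers counting error only; adjusted p = 0.000172). The lipoxygenase gene Alox12e was at 3 and 3 at puberty and 126 and 285 in pregnancy (5.57 ± 0.56) and the lipid flippase gene Atp10b at 15 and 13 at puberty and 215 and 348 in pregnancy (4.20 ± 0.38, adjusted p = 9.99e-05). These 4 genes were called in each fit that left out 1 of the 4 libraries, with adjusted p up to 0.00636, 0.00674, 0.00674 and 0.00515. Esrrb and Alox12e reached 10 through the pregnancy libraries alone and had to differ. In adult basal libraries Muc4 was at 6499 and 1969, Esrrb at 73 and 104 and Alox12e at 518 and 315. Luminal libraries of pregnancy held more of these 4 genes than basal ones. ER- luminal libraries held 12708 and 15834 of Muc4, 626 and 1037 of Alox12e and 946 and 1480 of Atp10b. ER+ luminal libraries held 3717 and 1705 of Esrrb. The part of luminal cells in these calls was not tested. Esrrb, Alox12e and Atp10b were picked after their values were seen, as were Muc15, Trps1 and Creb3l1 below.

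The mucin gene Muc15 was at 1254 and 1189 at puberty and 12844 and 21315 in pregnancy (3.76 ± 0.75) and Wfdc18, a small secreted whey-type protein, at 149 and 404 at puberty and 6290 and 9358 in pregnancy (4.96 ± 0.64). The polymeric immunoglobulin receptor gene Pigr, which carries antibodies into milk, was at 15 and 21 at puberty and 850 and 1984 in pregnancy (6.11 ± 1.02). The connexin gene Gjb2 was at 108 and 21 at puberty and 1943 and 3176 in pregnancy (5.67 ± 1.00). The connexin gene Gjb6 was at 17 and 13 at puberty and 501 and 1097 in pregnancy (5.55 ± 1.22). They were the 2 called higher of 25 integrin and junction genes (16% called in either direction, against 2.48% of all genes, median -0.08). Carbonic anhydrase 2, Car2, rose by 4.39 ± 0.73 and the nucleoside transporter gene Slc28a3 by 4.37 ± 0.63. Of 17 amino acid transporter genes 2 were called higher and none lower (11.8%, against 2.48% of all genes, median -0.33). They were Slc6a14, at 0 at puberty and 43 and 103 in pregnancy (at least 23.5-fold higher), which had to differ, and Slc1a4 (1.39 ± 0.32). The transcription factor gene Trps1 was at 5581 and 7220 at puberty and 11477 and 16265 in pregnancy (1.11 ± 0.18) and Creb3l1, a factor of the secretory pathway, at 138 and 228 at puberty and 725 and 775 in pregnancy (2.07 ± 0.32). Among 24 folding and secretion genes the chaperone gene Calr alone was called (4.17%, against 2.48% of all genes). It was at 6881 and 7285 at puberty and 11813 and 11037 in pregnancy (0.69 ± 0.14). In pregnancy ER- luminal libraries held more of most of these genes than basal ones. They held 48192 and 28176 of Muc15, 3940 and 8366 of Pigr, 8408 and 10382 of Gjb2 and 32390 and 36955 of Trps1. Calr was lower there, at 10726 and 9203, and Wfdc18 overlapped the basal values, at 18387 and 5802. The part of luminal cells in these calls was not tested. Without 1 of the 4 libraries, the calls of Muc15, Pigr, Gjb6, Car2, Slc1a4 and Calr were lost in every case (adjusted p up to 0.234, 0.13, 0.257, 0.13, 0.298 and 0.167). That of Gjb2 was lost without puberty library 2 or either pregnancy library (up to 0.153), those of Slc28a3 and Trps1 without puberty library 1 or pregnancy library 2 (up to 0.0884 and 0.0954), and those of Wfdc18, Slc6a14 and Creb3l1 without pregnancy library 2 (0.054, 0.054 and 0.0527).

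The contractile machinery showed no call. Of 22 genes of the contractile apparatus, none was called higher or lower, with a median of 0.13. Smooth muscle myosin, Myh11, was at 93350 and 78319 at puberty and 98009 and 102887 in pregnancy (0.23 ± 1.42, adjusted p = 0.991), calponin, Cnn1, at 14488 and 12865 at puberty and 15814 and 15298 in pregnancy (0.19 ± 0.92) and myosin light chain kinase, Mylk, at 33063 and 27176 at puberty and 39148 and 42013 in pregnancy (0.44 ± 1.25). Acta2 itself had a log2 fold change of 0.47 ± 1.12 (adjusted p = 0.94). Standard errors of these 4 genes were between 0.92 and 1.42 on the log2 scale. These errors, like those of Oxtr and the basal keratin genes, were estimated over all 18 libraries, luminal ones included. Puberty ER- luminal libraries held 3103 and 420 of Acta2 and 4959 and 444 of Myh11. A missing call here thus does not show equal levels in basal cells. In the 4 libraries fitted alone, 2 of the 22 were called higher.

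Oxtr had lower values in pregnancy, at 49019 and 34268 at puberty and 18837 and 20239 in pregnancy (-1.07 ± 0.57, adjusted p = 0.473). The pregnancy libraries lay below both puberty libraries and above the adult ones, at 10508 and 11147, but the difference missed the threshold. Of 22 genes of oxytocin and calcium signalling, none was called higher and 1 lower (4.55%, against 2.48% of all genes), with a median of -0.25. The lower one was Plcb4, a phospholipase C that releases calcium, at 1090 and 1168 at puberty and 475 and 338 in pregnancy (-1.49 ± 0.34, adjusted p = 0.033). Its call was lost without any 1 of the 4 libraries (adjusted p up to 0.293). The calcium sensor gene Stim1, at 2798 and 2798 at puberty and 1825 and 1557 in pregnancy, missed the threshold (adjusted p = 0.0791). With the 4 compared libraries fitted alone, 1 of the 22 genes was called higher and 5 lower. The 6 basal libraries fitted alone gave 4 lower and none higher.

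Basal identity genes were largely without a call. Of 18 basal keratin and lineage markers, none was called higher and 2 lower (11.1%, against 2.48% of all genes), with a median of -0.19. Krt5 was at 18170 and 14740 at puberty and 11391 and 9384 in pregnancy (-0.66 ± 0.72, adjusted p = 0.811) and Trp63, the master regulator of basal epithelium, at 10664 and 10207 at puberty and 10387 and 9166 in pregnancy (-0.10 ± 0.72). The lower ones were Itgb4, the hemidesmosome integrin (chromosome 11, 115974709 to 116008412, plus strand), and Lgr5, the R-spondin receptor of stem cells. Itgb4 was at 5518 and 4634 at puberty and 1759 and 1550 in pregnancy (-1.61 ± 0.19, adjusted p = 0.000449), with both pregnancy libraries well below puberty, and kept its call in each fit without 1 library (adjusted p up to 0.0153). Lgr5 was at 4218 and 3401 at puberty and 896 and 779 in pregnancy (-2.18 ± 0.46, adjusted p = 0.0258) and lost its call without any 1 of the 4 (up to 0.195). The surface marker gene Thy1, at 69 and 266 at puberty and 1377 and 1163 in pregnancy, and the stress keratin gene Krt6a, at 53 and 138 at puberty and 4 and 7 in pregnancy, missed the threshold (adjusted p = 0.0715 and 0.0701). Krt6a has a near-identical copy, Krt6b, so its values are uncertain. With the 4 compared libraries fitted alone, 2 of the 18 markers were called higher and 4 lower.

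Among 17 genes listed as basal transcription factors 1 was called in each direction (11.8%, against 2.48% of all genes, median -0.10). Barx2, a homeobox factor, was higher at 120 and 138 at puberty and 597 and 987 in pregnancy (2.57 ± 0.43, adjusted p = 0.00882). Tbx3, a T-box factor needed for mammary buds, was lower at 2767 and 2977 at puberty and 873 and 789 in pregnancy (-1.79 ± 0.36, adjusted p = 0.0207). ER- luminal libraries held more Barx2, at 2500 and 3247 at puberty and 2816 and 3481 in pregnancy. ER+ luminal libraries held more Tbx3, at 5228 and 6828 at puberty and 3415 and 1463 in pregnancy. The part of luminal cells in these 2 calls was not tested. Plakophilin 1, Pkp1, a desmosome plaque protein, also fell, at 4723 and 4676 at puberty and 2309 and 2044 in pregnancy (-1.11 ± 0.20). Outside the lists, 3 genes of the cell skeleton were called lower. The intermediate filament gene Vim was at 22924 and 20575 at puberty and 9300 and 8388 in pregnancy (-1.30 ± 0.29), the microtubule protein gene Map1b at 15626 and 16366 at puberty and 2737 and 2534 in pregnancy (-2.60 ± 0.50) and the membrane linker gene Msn at 9443 and 10218 at puberty and 4736 and 4176 in pregnancy (-1.14 ± 0.26). Vim, Map1b and Msn were picked after their values were seen. Without 1 of the 4 libraries, the calls of Tbx3, Pkp1, Vim, Map1b and Msn were lost in every case (adjusted p up to 0.167, 0.127, 0.236, 0.176 and 0.245), and that of Barx2 without puberty library 1 or pregnancy library 2 (up to 0.11).

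**Figure D3:**
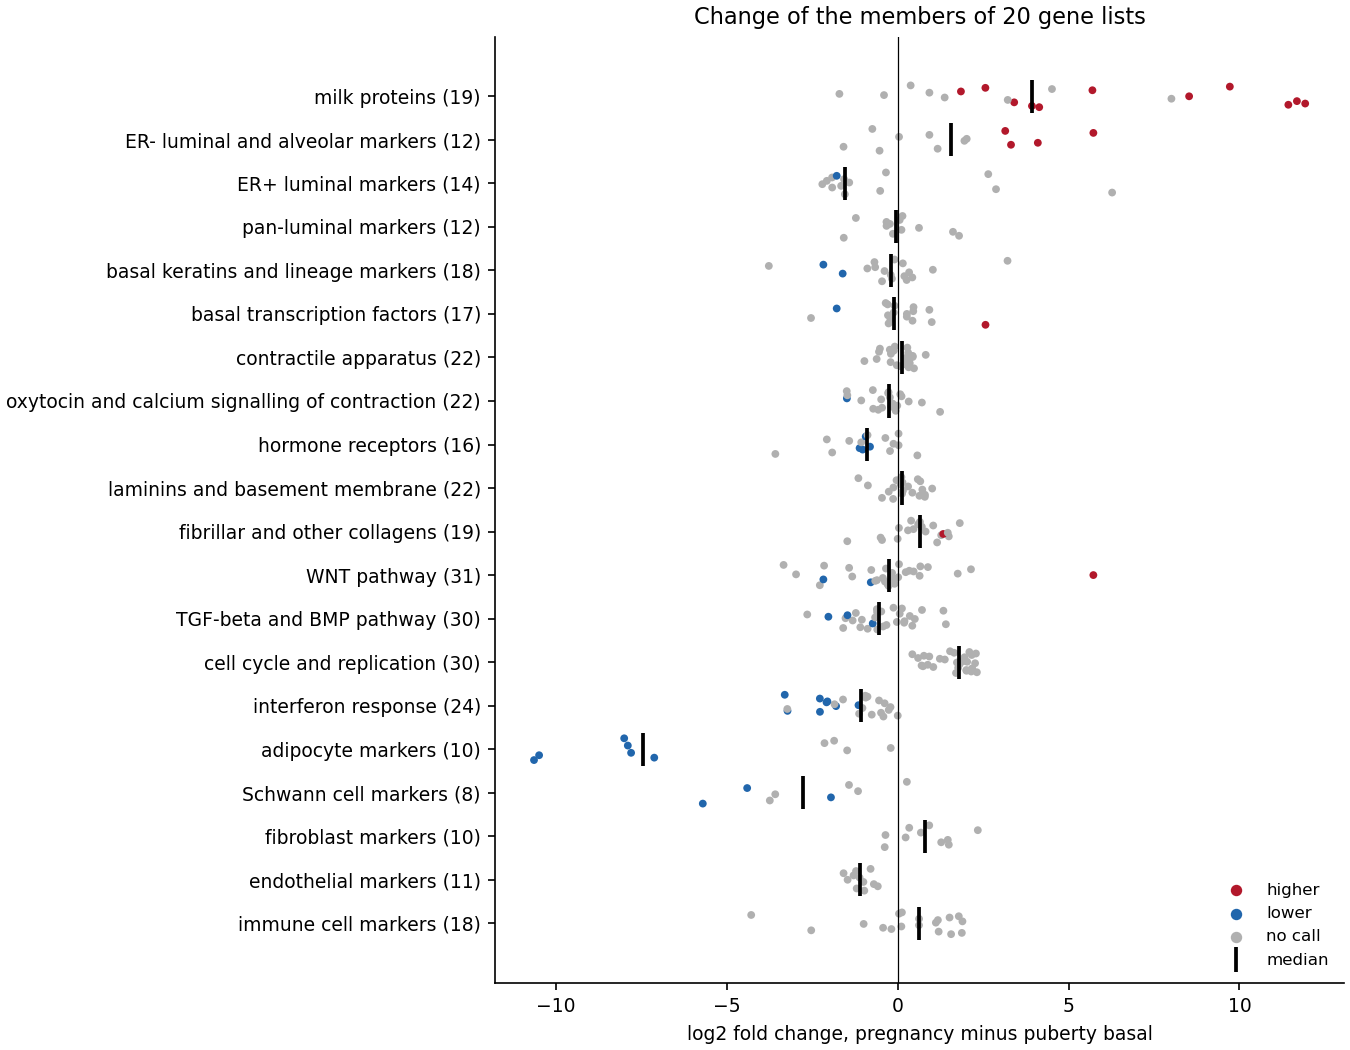
Log2 fold change of each member (points) of 20 gene lists, with the number of members in brackets and the list median as a black bar. Milk protein genes reach 11.93 and adipocyte markers -10.65, while contractile and basal lists centre near 0, with medians of 0.13 and -0.19.

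Matrix genes were rarely called. Of 22 laminin and basement membrane genes none was called (median 0.13). The laminin gene Lama1 was at 20440 and 13644 at puberty and 28406 and 26570 in pregnancy (0.72 ± 0.59, adjusted p = 0.709) and the collagen IV gene Col4a1 at 48218 and 42691 at puberty and 80473 and 76569 in pregnancy (0.79 ± 0.41, adjusted p = 0.451). Of 19 other collagen genes 1 was called (5.26%, against 2.48% of all genes), and the list's median was 0.65. It was Col23a1, a transmembrane collagen, at 771 and 784 at puberty and 2078 and 1838 in pregnancy (1.33 ± 0.26, adjusted p = 0.0137). Its call was lost without any 1 of the 4 libraries (up to 0.147). The fibrillar collagen gene Col1a1, at 15843 and 15889 at puberty and 45547 and 43795 in pregnancy, had no call (adjusted p = 0.397). None of 23 matrix glycoprotein genes and none of 26 protease and inhibitor genes was called. With the 4 libraries fitted alone, 9 of the 19 collagen genes were called higher and 2 lower, and 4 of the 22 basement membrane genes higher and 1 lower. In that fit 6 of the matrix glycoprotein genes were higher and 4 lower, and 5 of the protease and inhibitor genes higher and 6 lower.

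Outside these lists, 4 genes of the matrix or cell surface were called higher and are given here, while others of this kind, such as Papln and Prg4, were called lower. Lrrc15, a leucine-rich repeat membrane protein, was at 17 and 57 at puberty and 557 and 712 in pregnancy (4.29 ± 0.55, adjusted p = 0.00111). Mfap4, a microfibril protein, was at 41 and 82 at puberty and 995 and 1179 in pregnancy (4.20 ± 0.53, adjusted p = 0.000995), and Spon1, a secreted spondin, at 792 and 510 at puberty and 2059 and 1908 in pregnancy (1.64 ± 0.24, adjusted p = 0.00255). Adult basal libraries held 93 and 57 of Lrrc15, 53 and 52 of Mfap4 and 654 and 816 of Spon1, near the puberty values. The 3 calls were kept in each fit without 1 library (adjusted p up to 0.0277, 0.0209 and 0.0414). Col15a1, a basement membrane zone collagen, was at 1017 and 761 at puberty and 3906 and 3183 in pregnancy (2.00 ± 0.36), and its call was lost without puberty library 2 or either pregnancy library (up to 0.113). Mfap4 and Col15a1 were picked after their values were seen. The 10 fibroblast markers moved beside them in value. They summed to 67440 and 64565 at puberty and 159234 and 146185 in pregnancy, none was at 0 or called, and their median was 0.80. Lumican, Lum, a fibroblast proteoglycan, was at 743 and 1152 at puberty and 5052 and 4361 in pregnancy (adjusted p = 0.214). The part of fibroblasts in the matrix results was not tested.

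Fat cell transcripts were among the largest falls. Adipoq, adiponectin (chromosome 16, 23146536 to 23158028, plus strand), was at 1157 and 2227 at puberty and at 0 in both pregnancy libraries, at least 339-fold lower (adjusted p = 0.000238). Cyp2e1, a cytochrome P450 gene, was at 4559 and 9708 at puberty and 14 and 0 in pregnancy (-10.75 ± 1.37, adjusted p = 0.00152), and Cfd, adipsin, at 6601 and 12727 at puberty and 7 and 4 in pregnancy (-10.50 ± 1.38). Of 10 adipocyte markers 6 were called lower and none higher (60%, against 2.48% of all genes), with a median of -7.47. Adipoq, Cfd and Retn reached the value of 10 through the puberty libraries alone and had to differ. Of the other 7, 3 were called lower, with a median of -2.15. Beyond Adipoq and Cfd, the 6 called markers were Retn, resistin (-8.01 ± 1.16), the lipid droplet genes Plin1 (-7.90 ± 1.25) and Cidec (-7.81 ± 1.27), and Car3 (-7.13 ± 1.27). Pck1, of glyceride and glucose synthesis, was at 1163 and 2349 at puberty and 4 and 0 in pregnancy (-9.53 ± 1.59), and it too reached 10 through puberty alone, as did Crym below. Ces1d, a carboxylesterase of fat and liver, was at 260 and 880 at puberty and 14 and 4 in pregnancy (-5.79 ± 0.88). Crym, a thyroid hormone binding protein gene picked after its values were seen, was at 67 and 113 at puberty and 0 in both pregnancy libraries, at least 18-fold lower. Adult basal libraries stood near pregnancy, with 11 and 10 of Adipoq and 18 and 66 of Cfd.

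Markers without a call were Fabp4, at 6003 and 9495 at puberty and 3066 and 2378 in pregnancy, Plin4, at 1522 and 2472 at puberty and 363 and 527 in pregnancy, Pparg, at 398 and 711 at puberty and 172 and 123 in pregnancy, and Lep, leptin, at 126 and 69 at puberty and 70 and 93 in pregnancy. Fabp4 is also a gene of capillary endothelium, and the 11 endothelial markers summed to 11231 and 17309 at puberty and 7000 and 5956 in pregnancy, with none called. The sum of the 10 adipocyte markers was 24255 and 44402 at puberty and 3762 and 3189 in pregnancy. Luminal libraries had negative values as well, with a mean log2 fold change of -7.82 for Adipoq and -10.74 for Cyp2e1. In pregnancy Adipoq was at 0 in both basal libraries, Retn in the first and Plin1 in the second. The part of fat cells in the puberty sorts was not tested. Without 1 of the 4 libraries, Adipoq, Cyp2e1, Retn and Crym kept their calls (adjusted p up to 0.00674, 0.0207, 0.0422 and 0.00155). Cfd, Plin1, Cidec and Ces1d lost theirs without pregnancy library 2 (0.054, 0.0757, 0.0969 and 0.0632), Pck1 without puberty library 2 or pregnancy library 2 (up to 0.12), and Car3 without any 1 of the 4 (up to 0.134).

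Genes of the nerve sheath fell. Cdh19, a cadherin of Schwann cells, was at 3546 and 1406 at puberty and 37 and 47 in pregnancy (-5.71 ± 0.71, adjusted p = 0.00124). Myelin basic protein, Mbp, was at 1954 and 1152 at puberty and 330 and 451 in pregnancy (-1.96 ± 0.27, adjusted p = 0.00165). Of 8 Schwann cell markers 3 were called lower, Cdh19 and Mbp among them, and none higher (37.5%, against 2.48% of all genes, median -2.77). The first puberty library was the highest of the 4 for both genes. The 8 markers summed to 16940 and 7979 at puberty and 5260 and 5477 in pregnancy. Sox10, which basal epithelium also expresses, was at 4540 and 2965 at puberty and 4384 and 4434 in pregnancy, and made up most of the pregnancy sum.

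Single genes known from nerve were called lower as well, with no list behind them. Scn7a, a sodium channel gene, was at 43323 and 28290 at puberty and 4002 and 4355 in pregnancy (-3.07 ± 0.37, adjusted p = 0.00146). It stands among the more abundant of the lower genes. The adhesion genes Chl1, at 2201 and 1028 at puberty and 37 and 67 in pregnancy (-4.89 ± 0.60), and L1cam, at 1485 and 466 at puberty and 76 and 80 in pregnancy (-3.40 ± 0.45), and the phosphatase gene Ptprz1, at 1573 and 972 at puberty and 43 and 57 in pregnancy (-4.62 ± 0.61), were called lower. These 4 were picked after their values were seen. The neuritin gene Nrn1 was at 469 and 140 at puberty and 4 and 4 in pregnancy (-5.69 ± 1.13) and the scaffold protein gene Frmpd4 at 755 and 402 at puberty and 7 and 4 in pregnancy (-6.45 ± 1.01), both through puberty alone. Adult basal libraries held 12098 and 25041 of Scn7a, above pregnancy, but 46 and 118 of Cdh19, near pregnancy. Cdh19, Mbp, Scn7a, Chl1, L1cam and Ptprz1 kept their calls in each fit without 1 library (adjusted p up to 0.0217, 0.0343, 0.0215, 0.0197, 0.0217 and 0.033). Nrn1 lost its call without puberty library 1 or either pregnancy library (up to 0.166), and Frmpd4 without puberty library 1 or pregnancy library 2 (up to 0.0608). The part of Schwann cells in the puberty sorts was not tested.

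The next genes called lower belong to no list tested here. The serpin gene Serpina3n was at 4003 and 5089 at puberty and 458 and 385 in pregnancy (-3.42 ± 0.36, adjusted p = 0.000238), and haptoglobin, Hp, was at 1650 and 4440 at puberty and 43 and 20 in pregnancy (-6.48 ± 0.71, adjusted p = 0.00168). Lrg1, a secreted glycoprotein, was at 455 and 982 at puberty and 139 and 133 in pregnancy (-2.29 ± 0.35, adjusted p = 0.00364). The LIF receptor gene Lifr was at 36170 and 30385 at puberty and 8075 and 8759 in pregnancy (-1.98 ± 0.25, adjusted p = 0.00146), and its partner Il6st, the shared receptor chain gp130, at 21829 and 18822 at puberty and 10756 and 10769 in pregnancy (-0.91 ± 0.20, adjusted p = 0.0249). Both receptor genes had all pregnancy values below all puberty values. Complement C4b was at 16606 and 10970 at puberty and 1097 and 1183 in pregnancy (-3.56 ± 0.55, adjusted p = 0.00888). C4b has a close copy, C4a, so its values are uncertain.

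The alarmin gene Il33 was at 996 and 2936 at puberty and 89 and 73 in pregnancy (-4.39 ± 0.62, adjusted p = 0.00482), with adult basal values of 63 and 85. Among 24 chemokine and cytokine genes (8.33% called, against 2.48% of all genes) Il33 was the member called lower and Tnf the member called higher. Tnf was at 71 and 151 at puberty and 396 and 689 in pregnancy (2.32 ± 0.35), and the median of the list was 0.19. Serpina3n, Hp, Lrg1 and Lifr kept their calls in each fit without 1 library (adjusted p up to 0.00701, 0.0282, 0.0488 and 0.0231). Il33 and Tnf lost theirs without pregnancy library 2 (0.0606 and 0.0637), C4b without puberty library 1 or either pregnancy library (up to 0.0829), and Il6st without any 1 of the 4 (up to 0.183). Of this group Serpina3n, Lrg1, Lifr, Il6st and C4b were picked after their values were seen. Hp and Serpina3n are also genes of fat, and their mean log2 fold changes in luminal libraries were -3.44 and -3.65.

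Interferon response genes were lower in pregnancy basal cells. These genes are switched on after interferon binds its receptor, and many of their products act against viruses. Of 24 on the list, 8 were called lower and none higher (33.3%, against 2.48% of all genes), with a median of -1.08. All 24 had a negative log2 fold change, against 51.4% of all genes. Usp18, a protease that removes ISG15 and damps the receptor, was at 256 and 406 at puberty and 27 and 37 in pregnancy (-3.31 ± 0.33, adjusted p = 0.000172). Ifit1, which binds foreign RNA, was at 1305 and 1634 at puberty and 106 and 226 in pregnancy (-3.23 ± 0.45, adjusted p = 0.00235), and Oasl2, of the oligoadenylate synthetase family, at 1784 and 2234 at puberty and 333 and 504 in pregnancy (-2.28 ± 0.34, adjusted p = 0.0046). For each of the 3 both pregnancy libraries lay well under both puberty libraries.

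The other 5 called were Ifi44 (-2.28 ± 0.47), the GTPase gene Mx2 (-2.09 ± 0.36), the antiviral synthetase gene Oas1a (-2.06 ± 0.44) and the transcription factor genes Irf7 (-1.81 ± 0.34) and Irf9 (-1.15 ± 0.26). Isg15 itself, at 183 and 245 at puberty and 50 and 67 in pregnancy, had no call (adjusted p = 0.128). Library 2 was the higher of the pair for most of the list at puberty and in pregnancy, as the plot of interferon genes by library shows. Luminal libraries had a median of -1.39 for the same list. Usp18 and Ifit1 kept their calls without each of the 4 libraries (adjusted p up to 0.00472 and 0.0353). Oasl2 lost its call without pregnancy library 1 (0.0599), Ifi44 without either puberty library or pregnancy library 1 (up to 0.224), Mx2 without puberty library 2 or either pregnancy library (up to 0.0931), Irf7 without puberty library 2 or pregnancy library 1 (up to 0.168), Irf9 without either puberty library or pregnancy library 1 (up to 0.369) and Oas1a without any 1 (up to 0.265). The count of 8 ran from 2 to 6 over these fits, with 2 without pregnancy library 1. The 18 immune cell markers, which read 1298 and 6369 at puberty and 4745 and 10653 in pregnancy in sum, had no call. Of them Ms4a1 was at 0 in both pregnancy libraries. The part of immune cells was not tested.

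**Figure D4:**
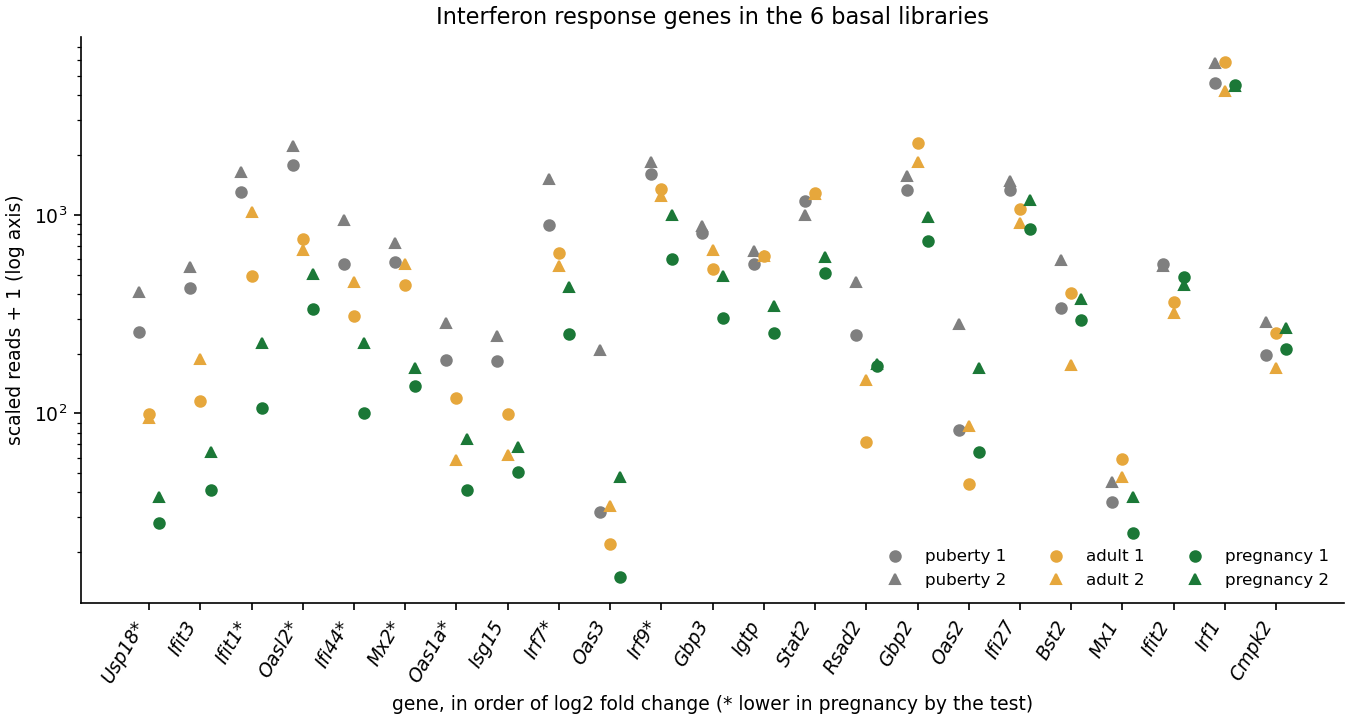
Values of interferon response genes in each of the 6 basal libraries (scaled reads + 1, log axis), ordered by log2 fold change, with circles for library 1 and triangles for library 2. For Usp18 the puberty values are 256 and 406, the adult values 98 and 94 and the pregnancy values 27 and 37.

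Promoters of 2 of the called interferon genes are shown, since members of this list were lower together and interferon acts through a response element. The 2 shown are the called genes whose promoter held the core of this element. The motif searched, on both strands, was the core of the interferon-stimulated response element, GAAA followed by any 2 bases and GAAA again. It is in capitals, with overlapping copies joined. The sequences are again RefSeq promoters of GRCm38.p6, 5′ to 3′ along the gene, chosen after the values were seen.
Ifit1, chr19:34640639-34640938, plus strand: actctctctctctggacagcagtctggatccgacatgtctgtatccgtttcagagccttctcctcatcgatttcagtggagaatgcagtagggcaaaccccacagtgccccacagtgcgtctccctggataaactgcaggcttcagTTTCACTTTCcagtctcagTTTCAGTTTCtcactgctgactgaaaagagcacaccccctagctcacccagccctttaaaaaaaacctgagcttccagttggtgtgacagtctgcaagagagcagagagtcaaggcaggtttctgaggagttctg
Oas1a, chr5:120907476-120907775, minus strand: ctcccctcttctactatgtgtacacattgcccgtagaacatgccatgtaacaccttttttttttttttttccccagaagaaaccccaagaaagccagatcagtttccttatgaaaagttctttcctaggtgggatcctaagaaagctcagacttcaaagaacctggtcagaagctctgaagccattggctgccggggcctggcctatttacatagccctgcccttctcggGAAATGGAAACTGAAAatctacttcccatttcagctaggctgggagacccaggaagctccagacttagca
Of the 24 genes 18 have a promoter in the table, and 11 of these hold the motif at least once. Of the called ones 6 have a promoter there and 2 hold it, Ifit1 and Oas1a. The motif is in 3.44% of all 32851 promoters and in 3.99% of the 27025 genes. No match says only that these letters are not in this window.

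Receptors for growth hormone, insulin, IGF-1 and thyroid hormone fell. Of 16 hormone receptor genes 4 were called lower and none higher (25%, against 2.48% of all genes), with a median of -0.91. The IGF-1 receptor gene Igf1r was at 9589 and 8062 at puberty and 4179 and 3918 in pregnancy (-1.12 ± 0.22, adjusted p = 0.0164). The insulin receptor gene Insr was at 3607 and 3621 at puberty and 1999 and 2113 in pregnancy (-0.81 ± 0.18, adjusted p = 0.0253). The growth hormone receptor gene Ghr was at 2562 and 3167 at puberty and 1285 and 1514 in pregnancy (-1.03 ± 0.21, adjusted p = 0.0192). The thyroid hormone receptor gene Thra was at 1374 and 1292 at puberty and 702 and 686 in pregnancy (-0.94 ± 0.19, adjusted p = 0.018). The replicates of each stage were close and the stages did not overlap for any of the 4. None of the 4 calls held in all fits without 1 library. Ghr, Thra and Insr lost theirs without any 1 (adjusted p up to 0.201, 0.153 and 0.199), and Igf1r without puberty library 1 or either pregnancy library (up to 0.153).

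Receptors of ovarian and lactogenic hormones had lower values without a call. Esr1 was at 840 and 3752 at puberty and 406 and 540 in pregnancy (adjusted p = 0.175), the progesterone receptor gene Pgr at 1343 and 4912 at puberty and 965 and 951 in pregnancy (adjusted p = 0.409) and the prolactin receptor gene Prlr at 2848 and 17742 at puberty and 1357 and 2087 in pregnancy (adjusted p = 0.239). In each the second puberty library was by far the highest. Markers of ER+ luminal cells were high in that same library: Foxa1, a factor of those cells, was at 433 and 2806 at puberty and 330 and 368 in pregnancy. Of 14 ER+ luminal markers none was called higher and 1 lower, Tbx3 (7.14%, against 2.48% of all genes), with a median of -1.56. The part of ER+ luminal cells in the receptor values was not tested.

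Local growth and patterning signals changed in a few members. In the EGF and FGF families, 1 of 27 genes was called higher and 2 lower (11.1%, against 2.48% of all genes, median -0.31). The neuregulin receptor gene Erbb4 rose, at 43 and 101 at puberty and 267 and 398 in pregnancy (2.29 ± 0.39). The ligand gene Tgfa fell, at 648 and 602 at puberty and 195 and 179 in pregnancy (-1.74 ± 0.37). So did the ligand gene Fgf1, at 4285 and 3874 at puberty and 1920 and 1941 in pregnancy (-1.08 ± 0.23). Egfr had no call, at 9317 and 8001 at puberty and 7591 and 7742 in pregnancy (-0.17 ± 0.23). Of 31 WNT pathway genes 1 was higher (Rspo1) and 2 lower (Lgr5 and Fzd7), 9.68% against 2.48% of all genes, with a median of -0.27. The receptor gene Fzd7 was at 16843 and 15538 at puberty and 9850 and 8875 in pregnancy (-0.79 ± 0.19, adjusted p = 0.0466). The secreted inhibitors Sfrp1, at 4577 and 2913 at puberty and 524 and 408 in pregnancy, and Dkk3, at 4348 and 4059 at puberty and 939 and 792 in pregnancy, had lower values without a call (adjusted p = 0.0709 and 0.158). Sfrp5, a related inhibitor that fat cells also make, was at 593 and 345 at puberty and 14 and 7 in pregnancy (-5.37 ± 0.66, adjusted p = 0.000934) and kept its call in each fit without 1 library (up to 0.0198).

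In the TGF-beta and BMP pathway none of 30 genes was higher and 3 were lower (10%, against 2.48% of all genes, median -0.54). They were Inhbb, a subunit of activin B, at 471 and 1651 at puberty and 211 and 219 in pregnancy (-2.03 ± 0.46), the BMP receptor gene Bmpr2, at 13833 and 13117 at puberty and 8078 and 8110 in pregnancy (-0.73 ± 0.16), and Ltbp2, a matrix protein of the latent TGF-beta binding family, at 12760 and 11043 at puberty and 4265 and 4285 in pregnancy (-1.47 ± 0.35). Pmepa1, a feedback inhibitor of TGF-beta signalling picked after its values were seen, was at 5019 and 4578 at puberty and 1054 and 1027 in pregnancy (-2.20 ± 0.25, adjusted p = 0.000403) and kept its call without each library (up to 0.00928). Of 19 Notch pathway genes none was higher and 1 lower (5.26%, against 2.48% of all genes). It was the Notch inhibitor gene Numb, at 3212 and 3378 at puberty and 1176 and 1176 in pregnancy (-1.49 ± 0.29). Of 29 axon guidance genes 1 was lower (3.45%, against 2.48% of all genes). It was netrin 4, Ntn4, a laminin-binding protein, at 5352 and 4908 at puberty and 491 and 534 in pregnancy (-3.32 ± 0.58, adjusted p = 0.0137). The calls of Tgfa, Fgf1, Fzd7, Bmpr2, Ltbp2, Numb and Ntn4 were lost without any 1 of the 4 libraries (adjusted p up to 0.18, 0.173, 0.319, 0.191, 0.252, 0.13 and 0.11). Erbb4 lost its call without puberty library 1 or pregnancy library 2 (up to 0.105), and Inhbb without puberty library 2 or either pregnancy library (up to 0.239).

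Proliferation genes had higher values in pregnancy and no call. All 30 cell cycle and replication genes had a positive log2 fold change, against 48.5% of all 18467 genes, with a median of 1.79. The proliferation marker gene Mki67 was at 3909 and 2154 at puberty and 13861 and 12206 in pregnancy (2.16 ± 1.12, adjusted p = 0.46), and Top2a, topoisomerase 2, at 1629 and 911 at puberty and 5991 and 4530 in pregnancy (2.10 ± 1.21, adjusted p = 0.524). Both pregnancy libraries exceeded both puberty libraries for 29 of the 30, a count without a test, against 26.6% of all 18467 genes. Ccnf, cyclin F, was among the nearest to a call, at 78 and 65 at puberty and 264 and 242 in pregnancy (adjusted p = 0.063). The adult basal libraries differed widely from each other, with 10126 and 1252 of Mki67, and they enter the estimate of spread. In the 4 libraries fitted alone 24 of the 30 were called higher. Of 14 cell cycle inhibitors 1 was lower, Rbl2, the retinoblastoma family protein p130, at 1617 and 1640 at puberty and 962 and 964 in pregnancy (-0.76 ± 0.16), a call lost without any 1 library (adjusted p up to 0.17).

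The remaining lists held few calls. Each list is given over its members that passed the limit of 10, which left out 3 of 34 WNT, 2 of 28 protease, 6 of 26 HOX and 1 of 20 Notch genes. Lipid synthesis and droplet genes counted 2 of 24 higher, Btn1a1 and the fatty acid binding protein gene Fabp3, at 27 and 17 at puberty and 1074 and 1544 in pregnancy (5.84 ± 1.03), and 1 lower, the acyltransferase gene Gpam, at 1514 and 3109 at puberty and 666 and 726 in pregnancy (-1.64 ± 0.35). Cholesterol synthesis (22 genes, median 0.30), oxidative phosphorylation (24, 0.19), glycolysis and glucose uptake (20, 0.12), antigen presentation (14, 0.32) and HOX genes (20, -0.46) had none. Of 20 immediate-early and dissociation stress genes 2 were lower (median -0.08), the heat shock genes Hspa1a, at 952 and 930 at puberty and 234 and 325 in pregnancy (-1.77 ± 0.36), and Hspa1b (-1.03 ± 0.25), near-identical copies whose values are uncertain. The calls of Fabp3, Hspa1a and Hspa1b were lost without any 1 of the 4 libraries (adjusted p up to 0.105, 0.192 and 0.288), and that of Gpam without puberty library 2 or either pregnancy library (up to 0.204). Of 42 lists 25 held at least 1 called gene, where 2.48% of all 18467 genes were called. A single call in a list was not read as a result about that list. The small proline-rich protein gene Sprr1a, of squamous epithelium and on no list, fell at 240 and 819 at puberty and 0 and 14 in pregnancy (-6.84 ± 1.23), a call lost without either puberty library or pregnancy library 1 (adjusted p up to 0.118). Where a gene was at 0 in both libraries of a stage, setting it to its bound left every list median as given.

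The change from puberty to pregnancy was then set against the same change in luminal cells, which shares no library with it. Most basal calls went the same way there: 142 of the 148 higher genes had a positive and 286 of the 310 lower genes a negative mean log2 fold change in ER- and ER+ luminal cells. Over all genes, 6755 of the 8965 with a positive basal value were positive in luminal cells, and 5847 of the 9501 with a negative value were negative. Csn2 rose by 11.59 and Wap by 10.20 in luminal cells, against 11.68 and 9.72 in basal cells, and the differences had no call (adjusted p = 0.995 and 0.94). The difference itself was tested for each gene, and 166 genes (0.899%) were called, 57 with a higher and 109 with a lower change in basal cells. This split depends on scaling: it was 85 and 95 with TMM factors, 103 and 97 with quantile normalization and 79 and 94 with median-ratio factors over all genes tested. The median difference over all genes was -0.14 on the values as deposited and near 0 under these scalings. Of the 166, 24 were also called in basal cells alone. Without puberty library 1 or 2 the count was 24 and 188, and without pregnancy library 1 or 2 it was 14 and 27.

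Itgb4 and the imprinted gene Peg3 are among these 24. Itgb4 had a log2 fold change of -1.61 in basal cells against -0.18 in luminal cells (difference -1.44 ± 0.23, adjusted p = 0.00783). Peg3, a paternally expressed zinc finger protein, was at 6798 and 4197 at puberty and 2190 and 2037 in pregnancy in basal cells (-1.34 ± 0.30), against 1.93 in luminal cells (difference -3.27 ± 0.36, adjusted p = 0.00324). The luminal value is a mean: Peg3 was at 2648 and 1749 at puberty and 2547 and 2708 in pregnancy in ER- luminal libraries. In ER+ luminal libraries Peg3 was at 1321 and 862 at puberty and 16873 and 9526 in pregnancy. The neural adhesion gene Nrcam was at 1155 and 598 at puberty and 86 and 113 in pregnancy in basal cells (-3.06 ± 0.52), against 1.27 in luminal cells (difference -4.33 ± 0.64, adjusted p = 0.00585). In the other direction Apod, apolipoprotein D, fell less in basal cells, at 1871 and 1661 at puberty and 389 and 351 in pregnancy (-2.25 ± 0.28), than in the mean of luminal cells (-4.96, difference 2.71 ± 0.34, adjusted p = 0.00324). ER- luminal libraries held 16508 and 11647 of Apod at puberty and 98 and 106 in pregnancy. ER+ luminal libraries held 1748 and 1573 at puberty and 262 and 201 in pregnancy, a change nearer the basal one. Spon1 rose in basal cells by 1.64 with 0.08 in luminal cells (difference 1.56 ± 0.29, adjusted p = 0.0232). The differences of Peg3 and Apod were called without each of the 4 libraries (adjusted p up to 0.0342 and 0.0416). That of Spon1 was lost without puberty library 2 or either pregnancy library (up to 0.165), that of Itgb4 without puberty library 1 or either pregnancy library (up to 0.093) and that of Nrcam without puberty library 1 or pregnancy library 1 (up to 0.0663). In basal cells alone the call of Apod was kept without each library (up to 0.0198), and those of Peg3 and Nrcam were lost without puberty library 1 or either pregnancy library (up to 0.253 and 0.0886).

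Basal markers had higher values in pregnancy than in puberty luminal libraries, which bears on the difference. Krt17, a basal keratin, was at 9334 and 14972 at puberty and 7423 and 5464 in pregnancy in basal libraries (-0.89 ± 0.51, no call). Its mean log2 fold change in luminal libraries was 2.42, and the difference was -3.31 ± 0.62 (adjusted p = 0.0381), a call lost without any 1 of the 4 libraries (up to 0.209). The 18 basal keratin and lineage markers had a median of 1.68 in luminal cells against -0.19 in basal cells. Their sum was 36215 to 39157 in puberty and 41880 to 44956 in pregnancy ER- luminal libraries, and 155589 to 160793 and 128770 to 147191 in basal libraries. The part of basal cells in the luminal sorts was not tested.

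**Figure D5:**
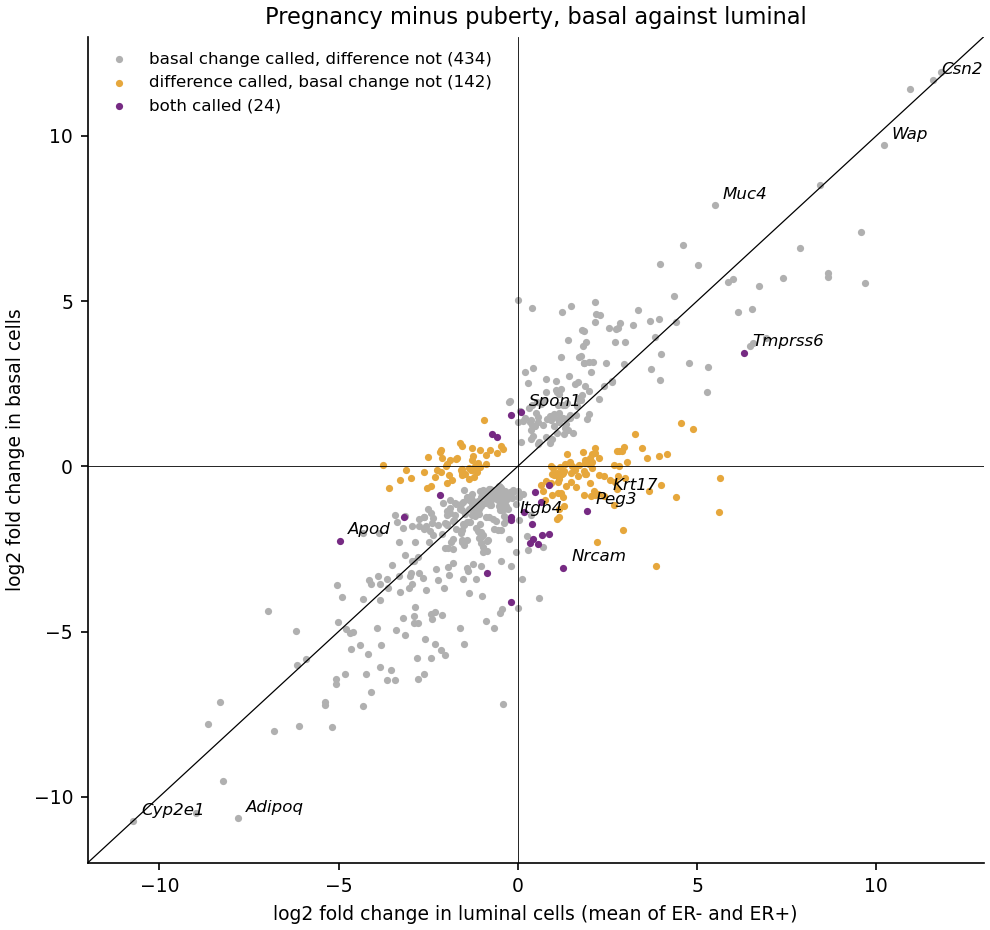
Log2 fold change from puberty to pregnancy in basal cells (vertical axis) against the mean change in ER- and ER+ luminal cells (horizontal axis) for genes called in either test, with the line of equal change. The 24 genes called in both tests are purple: Nrcam and Peg3 lie below the line and Apod and Spon1 above it.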

How the data were processed

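RNA of sorted cells was extracted with a column kit and made into libraries with Ovation Solo, per the labels' protocols. STAR, Picard, HTSeq and the build GRCm38 are named in the submitters' processing notes. The notes give no version or setting, nor how strand and duplicate reads were treated. The authors deposited 1 normalized signal per gene and library as whole numbers. Library totals near 20000000 and steps among low values show reads scaled to a common total and, as inferred from the values, rounded up. Inverting this gave whole reads for 99.9% of non-zero values in the compared libraries. Depths and the count tests rest on that inference. Of 46868 lines, 790 repeat 179 gene IDs, of which the line with the highest total was kept, leaving 46257 IDs.

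limma 3.58.1 (R 4.3.3; trend and robust empirical Bayes) was fitted to log2(value + 1) of 22315 genes with a value of 10 or more in at least 2 of 18 libraries. The model had 9 groups and 9 residual degrees of freedom, and it was tested on simulated data. A fold change on this scale understates that of low genes. The basal minus luminal difference is the basal change minus the mean of the ER- and ER+ luminal changes. edgeR 4.0.16 (quasi-likelihood) and DESeq2 1.42.0 on the recovered reads, other pseudocounts, filters and scalings, fewer libraries and a replicate block were alternatives. Summaries were made in Python 3.11.15 with numpy 2.4.6 and pandas 2.3.3, and figures with matplotlib 3.10.9.

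The comparison, the 42 gene lists and the alternatives were chosen with earlier results of these data known. Genes named by rule were a panel of 22, the 15 largest rises and 15 largest falls among called genes without overlap and above the median level, up to 4 called genes of each list, and 6 per direction of the difference. A part of the 99 genes so chosen is printed, and other genes named were picked after their values were seen. List genes Mrtfa, Ccn1 and Itgam matched no symbol in the table and are not used here. Some genes counted in the lists and totals are not reported here by name. Genes with close copies, overlapping genes and antisense pairs are uncertain, since the use of strand in counting is not given. Gene positions are those of GENCODE vM21 (GRCm38), and 45934 IDs had one. Intervals and bounds cover counting error only.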

Additional observations from a re-analysis of the deposited data

Results flagged for a closer look

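For 11 genes called in basal cells, the change from puberty to pregnancy differed between basal and luminal cells by limma's test of the difference, over 4 basal and 8 luminal libraries of the stages compared. Values are basal log2 fold changes minus the mean of the ER- and ER+ luminal ones, which differed from each other for some genes.

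The change was lower in basal cells for 5 of them. The difference was -3.27 for Peg3 and -4.33 for Nrcam, described above. It was -2.92 for Pygl, liver-type glycogen phosphorylase, at 554 and 652 at puberty and 116 and 179 in pregnancy in basal cells, with 0.87 in luminal cells (adjusted p of the difference = 0.00967). It was -2.92 for Scx, scleraxis, a transcription factor of tendon, at 633 and 667 at puberty and 129 and 123 in pregnancy, with 0.56 in luminal cells (adjusted p = 0.0151). For the protease gene Tmprss6, at 15 and 19 at puberty and 155 and 242 in pregnancy, it was -2.86, with 6.30 in luminal cells (adjusted p = 0.0232). Pygl was lower in pregnancy in ER- luminal libraries, from 283 and 236 to 91 and 106. In ER+ luminal libraries Pygl was higher, from 178 and 104 to 1659 and 853. Tmprss6 went from 17 and 11 to 344 and 391 in ER- luminal libraries. In ER+ luminal libraries Tmprss6 went from 33 and 26 to 8653 and 6571.

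The change was higher in basal cells for the other 6. The difference was 2.71 for Apod and 1.56 for Spon1, described above. For Extl1, an exostosin-like glycosyltransferase, at 108 and 178 at puberty and 363 and 464 in pregnancy in basal cells, it was 1.76 (adjusted p = 0.0321). Rap1gap, which switches off the GTPase Rap1, was at 481 and 623 at puberty and 1091 and 1073 in pregnancy, with a difference of 1.70 (adjusted p = 0.00683). Arhgef6, an exchange factor of small GTPases, was at 1362 and 1622 at puberty and 514 and 517 in pregnancy, with a difference of 1.65 (adjusted p = 0.0396) and a luminal value of -3.17. Cx3cl1, fractalkine, a membrane-bound chemokine, was at 1846 and 2605 at puberty and 4038 and 4020 in pregnancy, with a difference of 1.45 (adjusted p = 0.0162).

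Leaving out 1 basal library at a time, the differences of Peg3 and Apod were called each time. Those of Arhgef6 and Tmprss6 were lost each time (adjusted p up to 0.246 and 0.18). Those of Extl1, Rap1gap, Cx3cl1 and Scx were lost without puberty library 1 or either pregnancy library (up to 0.246, 0.0687, 0.16 and 0.113), that of Spon1 without puberty library 2 or either pregnancy library (up to 0.165), that of Nrcam without puberty library 1 or pregnancy library 1 (up to 0.0663) and that of Pygl likewise (up to 0.109). In basal cells alone, the calls of Pygl and Scx were lost each time (up to 0.155 and 0.0969). Those of Extl1, Rap1gap and Cx3cl1 were lost without puberty library 1 or either pregnancy library (up to 0.14, 0.223 and 0.362), and that of Arhgef6 without puberty library 2 or either pregnancy library (up to 0.102). That of Tmprss6 was kept each time (up to 0.0294).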

How the results depend on the processing

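The count of 458 called genes was 696 with a pseudocount of 20, 1509 with the 4 compared libraries alone, 904 without the 6 adult libraries, 221 with empirical Bayes without trend and robust, and 1321 with DESeq2 on recovered reads. It was 75 to 240 without 1 of the 4 libraries. With a pseudocount of 5, no filter, a filter of 50, TMM, quantile or median-ratio scaling, the 6 basal libraries alone, edgeR, thinned reads or without the 4 adult luminal libraries it was 443 to 686. A like count did not mean the same genes. With the 6 basal libraries alone, 277 of the 458 were called again in the same direction. Pigr, Car2, Gjb2, Gjb6, Muc15, Btn1a1, Lgr5 and Ntn4 were among those lost. With the other settings of that range 361 to 452 were called again. With empirical Bayes without trend and robust 196 were. The 166 called differences were 317 with a pseudocount of 20, 250 without the 6 adult libraries, 50 with empirical Bayes without trend and robust, 312 with edgeR, 715 with DESeq2, and 14 to 188 without 1 of the 4 libraries. They were not run with the basal libraries alone. The causes of these shifts were not tested, except that leaving out a library leaves a stage with 1 sample, assumed to vary like the other groups. With a replicate block the counts were 539 and 204. Library differences of the compared groups correlated at 0.039 across genes, so the replicate numbers were not shown to pair the samples. The log2 fold change turned for Myh11 with quantile normalization (-0.12), for Krt8 with edgeR (-0.002) and DESeq2 (-0.012) and for Ptprc with edgeR (-0.068) and DESeq2 (-0.078). Without 1 of the 4 libraries it ran from -0.40 to 0.51 for Krt8, -1.001 to 0.54 for Krt18, -0.68 to 0.92 for Ptprc and -0.64 to 0.22 for Lep. None of these genes was called in any of those fits, and no called gene named here turned under any alternative run. Leaving out the adult libraries and thinning were chosen after seeing the data. With 2 libraries per group, a missing call does not show equal levels. A value of 4 in a pregnancy library stands for 1 read.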

Other observations

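Among the 47 genes called in each fit that left out 1 library, several belong to no list and were picked here after their values were seen. Of those higher in pregnancy, the ketone enzyme gene Bdh1 was at 74 and 76 at puberty and 363 and 507 in pregnancy. The tetraspanin gene Tspan33 was at 21 and 28 at puberty and 109 and 130 in pregnancy, and Fam83a was at 31 and 13 at puberty and 159 and 212 in pregnancy. In adult basal libraries Bdh1 was at 370 and 197 and Tspan33 at 264 and 188.

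Of those lower in pregnancy, protein S, Pros1, a cofactor of anticoagulation and ligand of TAM receptors, was at 7705 and 6926 at puberty and 2737 and 2342 in pregnancy (-1.53 ± 0.22, adjusted p up to 0.0454 without 1 library). Papln, a matrix protein of the papilin family, was at 2997 and 3802 at puberty and 399 and 461 in pregnancy. Fgl2, a fibrinogen-like protein, was at 6143 and 3253 at puberty and 527 and 553 in pregnancy. The lubricin gene Prg4 was at 274 and 834 at puberty and 33 and 34 in pregnancy. Pbxip1, which binds PBX homeobox factors, was at 6613 and 6740 at puberty and 2230 and 2381 in pregnancy (-1.53 ± 0.20). The adhesion gene Cadm4 was at 1096 and 621 at puberty and 89 and 87 in pregnancy. Adult basal values lay between the stages for Pros1, Fgl2 and Prg4, and near the pregnancy values for Pbxip1, with 2216 and 2569.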
